A study of Solanum lycopersicum with 18 samples.

Results

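Abscisic acid is the plant hormone best known for closing stomata and for seed dormancy, and in tomato it also accumulates in the fruit as ripening begins. It is made from carotenoids in the plastid: zeaxanthin is turned into violaxanthin and neoxanthin, a cis-epoxycarotenoid dioxygenase (NCED) cleaves these to the precursor of the hormone, and an aldehyde oxidase carries out the last step. Hydroxylases of the CYP707A family start its breakdown, so the hormone pool depends on both arms of the pathway.

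The 8 genes described here are members of both arms or of the response to the hormone. They were chosen by gene ID and role, with no rule on their values but with earlier results of these data known. Synthesis was represented by NCED1 (Solyc07g056570) and NCED2 (Solyc08g016720), by ABA4 (Solyc02g086050, the neoxanthin step, named after the Arabidopsis gene) and by FLACCA (Solyc07g066480, which sulfurates the molybdenum cofactor that the aldehyde oxidase needs). Breakdown was represented by 3 CYP707A genes, CYP707A1 (Solyc04g078900), CYP707A2 (Solyc08g005610) and Solyc04g071150, and the response to the hormone by AREB1 (Solyc04g078840), a bZIP transcription factor that binds abscisic acid response elements. The list of genes was given by role, and the numbers 1 and 2 of the CYP707A genes follow RefSeq symbols listed on chromosomes 4 and 8. No member ID matched RefSeq. Solyc04g078900 and Solyc04g071150 are both on chromosome 4, so the chromosome does not settle which of them is CYP707A1, and the name is a label here. All 8 IDs were found in the tables of each variety, among 34724 gene IDs listed in all 3 varieties.

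RNA was sequenced from red ripe fruit of field-grown plants of 3 tomato varieties, Heinz (H), San Marzano (SM) and Vesuviano (RSV), each grown at Acerra and at Sarno in southern Italy, with 3 libraries per variety and location and 18 libraries in all. Values are FPKM, the fragments of a gene divided by its transcript length and by the mapped fragments of the library, so levels of different genes can be set side by side within a variety. Each variety was quantified in a run of its own on its own assembly, so levels were not tested between varieties and only the Acerra/Sarno differences were compared. It is not stated if replicates were taken from different plots or split from 1 pool of fruit, and the p-values measure only the spread between these libraries. In bulk fruit RNA, fewer cells of a type and less RNA per cell cannot be told apart.

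Low FPKM values gave the depth of each library relative to the first Acerra library of its variety, which ran between 0.887 and 1.68 in RSV, between 0.819 and 2.58 in SM and between 0.860 and 1.57 in H. In SM and in RSV every Sarno library was deeper than every Acerra library, so depth and location cannot be told apart there. The paper's mapping statistics were not used for these depths. They list a lower share of mapped fragments in every Acerra library of SM than in every Sarno library of SM, which cannot be told apart from location either. Sarno replicate 3 of RSV stood apart, with a single locus at 993065 FPKM. Sarno replicate 1 and Acerra replicate 2 of SM also had a very high locus, at 418428 and 345940 FPKM. The highest value in the remaining libraries was 113683 FPKM. ACS2 (Solyc01g095080), an enzyme of ethylene synthesis in ripening fruit, was above 20 FPKM in all 18 libraries. Markers of green tissue had lower group means at Acerra than at Sarno in each variety, but few of these differences passed a test. The chlorophyll a-b binding protein P4 (Solyc03g115900) was at 0 to 0.189 FPKM in Acerra libraries and at 0.270 to 10.6 FPKM in Sarno libraries, and the chlorophyll a-b binding protein 6A (Solyc05g056050) was listed at 0 in 5 of 9 Acerra libraries and in 0 of 9 Sarno libraries. Summed with a photosystem II-associated protein (Solyc06g060340), these 3 markers came to 0.655 to 0.817 FPKM in RSV Acerra against 8.72 to 12.2 FPKM in RSV Sarno, to 0.499 to 2.34 FPKM in H Acerra against 22.1 to 90.4 FPKM in H Sarno, and to 7.65 to 60.4 FPKM in SM Acerra against 34.5 to 86.0 FPKM in SM Sarno. In H and SM most of the sum came from the photosystem II-associated protein, whose SM locations overlapped. By the limma test described below it passed in H (adjusted p = 0.019), and not in SM (adjusted p = 0.455) or RSV (adjusted p = 0.10). P4 passed in no variety (adjusted p = 0.13 in H, 0.21 in SM and 0.056 in RSV). 6A did not pass in SM (adjusted p = 0.30) and was too low to be tested in H and RSV. The part of tissue make-up in the results below was not tested.

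In the reference genome used for H (SL2.40), CYP707A1 lay on chromosome 4 at 61167799 to 61171187 and AREB1 on the same chromosome at 61094100 to 61097408, a gap of 70390 bp. CYP707A2 lay on chromosome 8 at 477019 to 479993 and NCED2 on that chromosome at 8634392 to 8636138. ABA4 was listed on chromosome 2 at 43421838 to 43425124, and FLACCA on chromosome 7 at 65118390 to 65130743. In SM the interval given for ABA4 is 9566 bp long and is shared with 1 other locus, against 3287 bp and 0 other loci in H. The interval given for NCED1 on chromosome 7 is 229868 bp long and is shared with 27 other loci in H, so the tables do not give its own position. Solyc04g071150 was quantified in 1 locus together with Solyc04g071160 in all 3 varieties (chromosome 4, 55663673 to 55678715 in H), and its values may hold reads of both. The tables name genes only and do not separate exons, introns and UTRs.

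**Figure D1:**
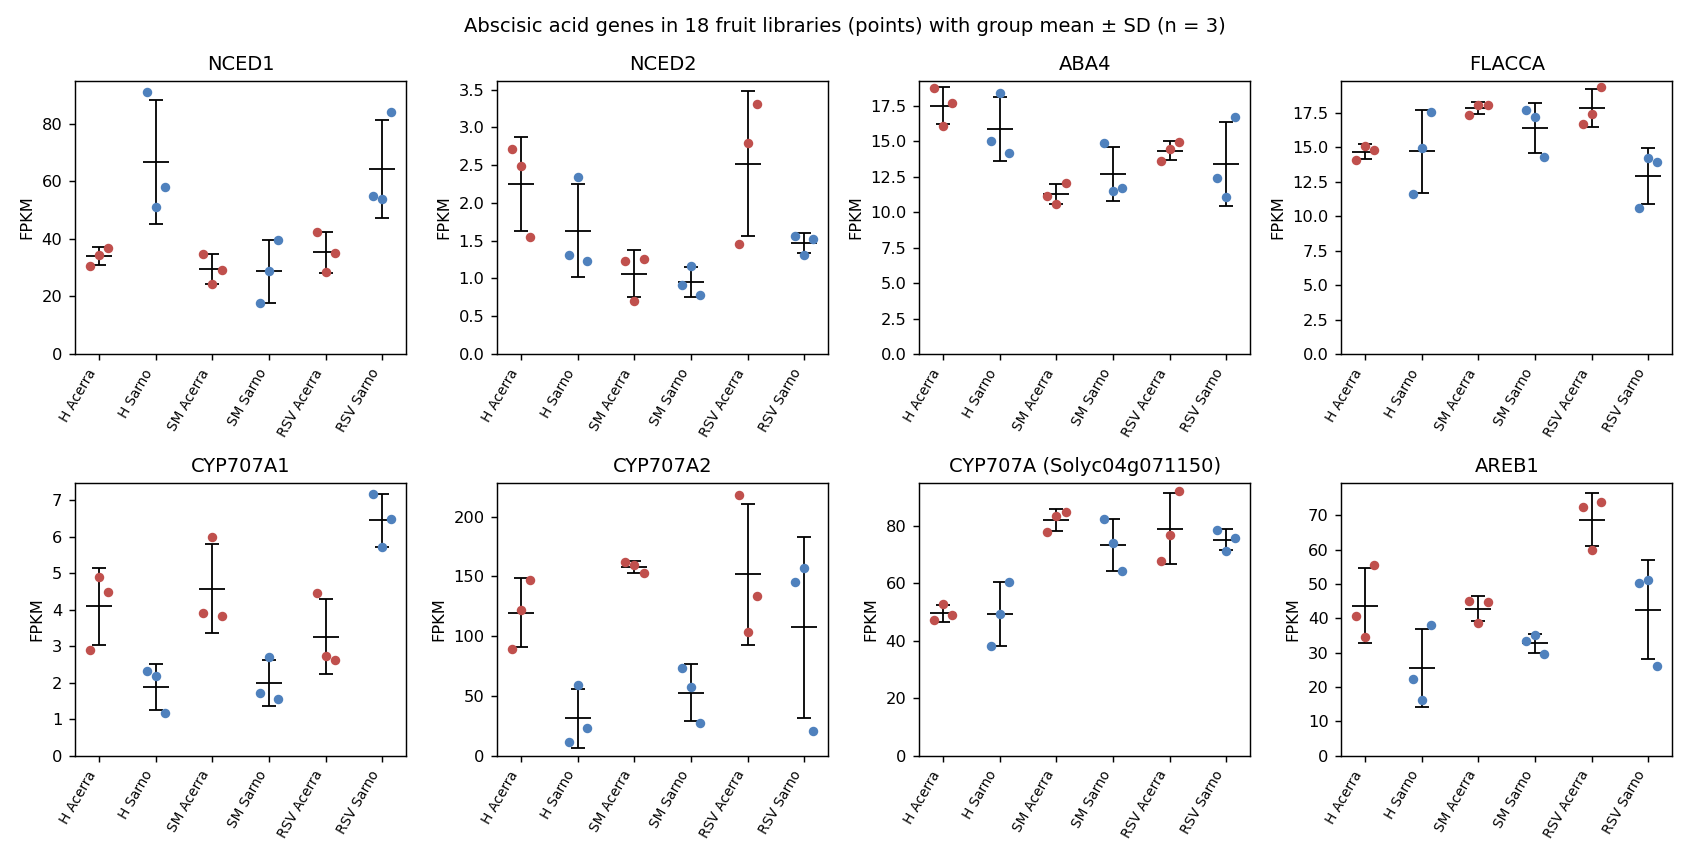
FPKM of the 8 genes (vertical axes, each from 0) in the 6 groups of variety and location. Points are single libraries, red for Acerra and blue for Sarno, and black bars are the mean ± SD of 3 libraries. The CYP707A1 points lie higher at Acerra in H and SM and lower at Acerra in RSV, and CYP707A2 has 1 RSV Sarno library at 20.3 FPKM while the others are at 145 and 157 FPKM.

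The levels of the 8 genes were widely spaced. CYP707A2 had the highest mean of all members at Acerra in every variety, at 152 ± 59.3 FPKM in RSV, 158 ± 4.63 FPKM in SM and 120 ± 29.0 FPKM in H (SD, n = 3 each), and its lowest Acerra library lay above the highest library of the second gene, Solyc04g071150, in each variety. NCED2 was the lowest in all 6 groups, with group means of 0.955 to 2.52 FPKM, and CYP707A1 the second lowest, with group means of 1.89 to 6.44 FPKM. These neighbours overlapped in H Sarno and in RSV Acerra and were separate in the other groups. ABA4 and FLACCA lay between, with all 18 libraries at 10.6 to 18.7 FPKM for ABA4 and at 10.6 to 19.4 FPKM for FLACCA. At Sarno the order at the top was looser, since the libraries of CYP707A2 spread over 11.4 to 59.1 FPKM in H and over 20.3 to 157 FPKM in RSV. There NCED1 had the highest mean in H, at 66.7 ± 21.4 FPKM, Solyc04g071150 in SM, at 73.4 ± 9.04 FPKM, and CYP707A2 in RSV, at 108 ± 75.8 FPKM, and each overlapped the next gene in the order.

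Whether the fruit of a variety differed between locations was tested with limma on log2(FPKM + 0.5), with Benjamini-Hochberg adjustment over all loci that averaged 0.5 FPKM or more and a threshold of 0.05. A fold change is Acerra over Sarno on that scale, so a positive value means higher at Acerra, and low values such as those of NCED2 and CYP707A1 are understated. In SM 1 of the 8 genes rose at Acerra (CYP707A2) and none fell, against 6.07% of all 18150 loci higher and 2.14% lower. In RSV 1 of the 8 fell at Acerra (CYP707A1) and none rose, against 5.72% of 18328 loci lower and 6.11% higher. In H none of the 8 passed in either direction, against 6.58% of 18089 loci higher and 2.26% lower. Before adjustment p was under 0.05 for 4 genes in H, 3 in SM and 4 in RSV, beside 29.7%, 25.7% and 30.4% of all loci tested. The median log2 fold change of the 8 genes was 0.29 in RSV, where that of all loci tested was -0.02, 0.14 in SM, where it was 0.02, and 0.26 in H, where it was 0.10. The counts among 8 genes are too small to be set against these shares, and what follows is about single genes.

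The 3 Acerra and 3 Sarno libraries did not overlap for 2 genes higher at Acerra in H (CYP707A1 and CYP707A2), beside 24.5% of all loci, and for 1 lower at Acerra (NCED1), beside 12.4%. In SM there were 3 higher (CYP707A1, CYP707A2 and AREB1), beside 18.2%, and 0 lower, beside 14.9%. In RSV there were 2 higher (FLACCA and AREB1), beside 18.5%, and 2 lower (NCED1 and CYP707A1), beside 19.4%.

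**Figure D2:**
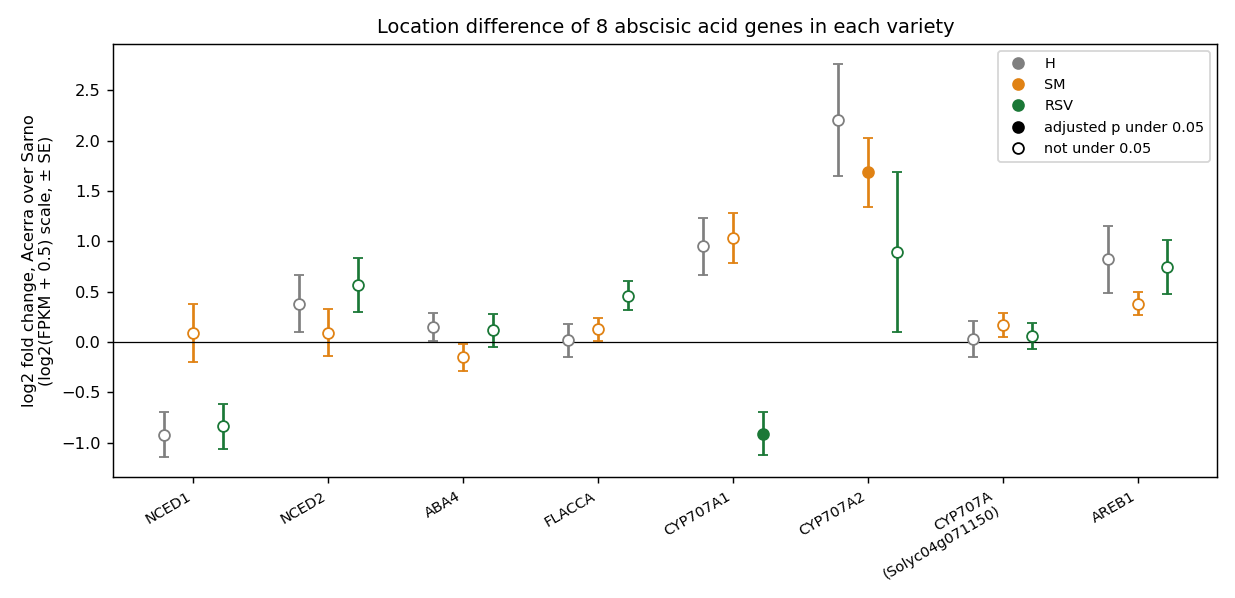
Log2 fold change of Acerra over Sarno (vertical axis, log2(FPKM + 0.5) scale) of the 8 genes in H, SM and RSV. Bars are ± SE from limma over 6 libraries, and filled points have an adjusted p under 0.05. The 2 filled points are CYP707A2 in SM at 1.68 and CYP707A1 in RSV at -0.91.

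Among the genes of synthesis, NCED1 catalyses the committed cleavage and was by far the more abundant dioxygenase. In H it had 30.7, 34.6 and 36.7 FPKM at Acerra and 91.1, 50.9 and 58.2 FPKM at Sarno. RSV libraries showed 42.5, 28.4 and 35.2 FPKM at Acerra and 54.9, 53.9 and 83.9 FPKM at Sarno. Every Acerra library of these 2 varieties lay below every Sarno library of the same variety. The log2 fold change was -0.92 (SE 0.23) in H and -0.84 (SE 0.22) in RSV, and both missed the threshold in limma, with an adjusted p of 0.054 in H and 0.059 in RSV. Without Sarno replicate 3 of RSV the RSV difference shrank to -0.63 and passed (adjusted p = 0.046), and without any other single RSV library it did not (adjusted p = 0.092 to 0.16). Without Sarno replicate 3, 4176 of all loci passed in RSV, against 2167 with every library.

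SM differed in appearance, with NCED1 at 34.8, 24.4 and 29.1 FPKM at Acerra and at 17.8, 28.8 and 39.6 FPKM at Sarno. The Acerra libraries lay inside the range of the Sarno libraries, and the log2 fold change was 0.09 (95% interval -0.60 to 0.78). The difference of this response from that of H was 1.01 (SE 0.40, adjusted p = 0.38 by limma's interaction test over 12 libraries), and RSV minus SM was -0.93 (SE 0.40, adjusted p = 0.33), so neither difference between varieties held after adjustment.

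NCED2 encodes a second dioxygenase of the same step. It had 2.71, 2.49 and 1.54 FPKM in H Acerra against 1.32, 2.34 and 1.23 FPKM in H Sarno. In SM the values were 1.23, 0.705 and 1.26 FPKM at Acerra and 0.916, 1.17 and 0.781 FPKM at Sarno, and in RSV 1.46, 2.79 and 3.31 FPKM at Acerra and 1.56, 1.31 and 1.53 FPKM at Sarno. The locations overlapped in all 3 varieties, and the log2 fold change was 0.57 in RSV (adjusted p = 0.21), 0.09 in SM (adjusted p = 0.83) and 0.38 in H (adjusted p = 0.40) by limma.

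NCED1 thus gave 91.1% to 98.6% of the summed FPKM of both dioxygenases in every library. The NCED1/NCED2 ratio within a library, in which any scaling of the whole library cancels, was 11.3, 13.9 and 23.8 in H Acerra and 69.3, 21.8 and 47.2 in H Sarno. In RSV it was 29.2, 10.2 and 10.6 at Acerra and 35.1, 41.0 and 55.0 at Sarno, with no overlap, while the H locations overlapped in 1 library each. SM had 28.3, 34.6 and 23.2 at Acerra and 19.4, 24.7 and 50.8 at Sarno. These ratios are a description and were not tested.

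ABA4 and FLACCA act before and after the cleavage and showed little spread. ABA4 had 18.7, 16.1 and 17.7 FPKM in H Acerra and 15.0, 18.4 and 14.2 FPKM in H Sarno, with overlap, and its 95% interval for the log2 fold change ran from -0.27 to 0.50 in RSV, while SM gave -0.48 to 0.17 and H gave -0.19 to 0.48. In SM ABA4 had 11.2, 10.6 and 12.1 FPKM at Acerra and 14.9, 11.5 and 11.7 FPKM at Sarno, and in RSV 13.6, 14.5 and 15.0 FPKM at Acerra and 12.4, 11.1 and 16.7 FPKM at Sarno, again with overlap. FLACCA had 16.7, 17.4 and 19.4 FPKM in RSV Acerra against 10.6, 14.2 and 13.9 FPKM in RSV Sarno, with no overlap, a log2 fold change of 0.46 (SE 0.14) and an adjusted p of 0.084 in limma. H had 14.1, 15.1 and 14.8 FPKM of FLACCA at Acerra and 11.6, 15.0 and 17.6 FPKM at Sarno, and SM 17.4, 18.1 and 18.1 FPKM at Acerra and 17.7, 17.2 and 14.3 FPKM at Sarno. These locations overlapped, with 95% intervals of -0.38 to 0.41 in H and -0.15 to 0.39 in SM.

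The enzymes that supply the carotenoid precursors stand upstream of these genes. Among other genes of the pathway only beta-carotene hydroxylase 2 (Solyc03g007960), which makes zeaxanthin from beta-carotene, is annotated in the sources used here, and the rest were not counted. It rose at Acerra in 1 of the 3 varieties. In SM it had 60.9, 50.7 and 58.9 FPKM at Acerra and 27.5, 36.6 and 19.1 FPKM at Sarno, a log2 fold change of 1.07 (SE 0.23, adjusted p = 0.039 by limma). The log2 fold change was 0.86 in H (SE 0.33, adjusted p = 0.14) and 0.41 in RSV (SE 0.28, adjusted p = 0.37). The SM call was kept without Sarno replicate 2 of SM (adjusted p = 0.015) and lost without any other single SM library, with adjusted p-values of 0.052 to 0.14.

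CYP707A2, a hydroxylase that inactivates abscisic acid, had the widest span of the members, 19.2-fold between the lowest and the highest of the 18 libraries. SM fruit had 162, 159 and 153 FPKM at Acerra and 73.7, 57.5 and 27.3 FPKM at Sarno. All Acerra libraries were more than 2 times as high as any Sarno library, and the transcript rose at Acerra with a log2 fold change of 1.68 (SE 0.34, adjusted p = 0.032 by limma), a 3.21-fold difference. The call was lost without any 1 of the 3 Acerra libraries (adjusted p = 0.095 to 0.12) and without Sarno replicate 2 (adjusted p = 0.0501), and it was kept without either of the other Sarno libraries. The log2 fold change without 1 Acerra library was 1.67 to 1.71. Only 358 to 796 of all loci passed then, against 1490 with every library.

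H fruit had 89.6, 122 and 147 FPKM of CYP707A2 at Acerra and 11.4, 59.1 and 23.0 FPKM at Sarno. The locations did not overlap, and the log2 fold change of 2.21 was larger than in SM, but the Sarno libraries were scattered over a 5.21-fold range, the SE was 0.56 and the adjusted p was 0.059 in limma. It passed without Sarno replicate 2 (log2 fold change 2.82, adjusted p = 0.036) and not without any other single H library (adjusted p = 0.082 to 0.17), and was lowest, at 1.65, without Sarno replicate 1. RSV fruit had 218, 103 and 134 FPKM at Acerra and 145, 157 and 20.3 FPKM at Sarno. There the log2 fold change of 0.89 (SE 0.80, adjusted p = 0.49) rested on 1 library, since it was -0.06 (adjusted p = 0.90) without Sarno replicate 3. Differences of the response between varieties did not pass, at -0.52 (SE 0.72) for SM minus H, -1.31 (SE 1.07) for RSV minus H and -0.79 (SE 0.95) for RSV minus SM, and adjusted p-values of 0.82, 0.58 and 0.76 in limma.

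CYP707A1, a hydroxylase of the same family present at far lower levels, was the member whose locations were separate in opposite directions in different varieties. In RSV it had 4.45, 2.73 and 2.61 FPKM at Acerra and 7.15, 5.70 and 6.48 FPKM at Sarno, so every Acerra library was below every Sarno library. It fell at Acerra by 0.91 on the log2 scale (SE 0.21, adjusted p = 0.042 by limma). In SM it had 3.92, 5.99 and 3.82 FPKM at Acerra and 1.71, 2.71 and 1.56 FPKM at Sarno, and in H 2.88, 4.90 and 4.48 FPKM at Acerra and 2.33, 2.18 and 1.16 FPKM at Sarno. Both showed the opposite order with no overlap, with log2 fold changes of 1.03 (SE 0.25, adjusted p = 0.055) in SM and 0.95 (SE 0.28, adjusted p = 0.084) in H, which did not pass. The SM difference passed without Sarno replicate 2 of SM (adjusted p = 0.035) and not without any other single SM library (adjusted p = 0.11 to 0.14).

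The difference of the responses themselves was tested as an interaction of location and variety. RSV minus SM was -1.94 (SE 0.34, 95% interval -2.69 to -1.20, adjusted p = 0.033), and CYP707A1 was the only one of the 8 genes to pass in this comparison, in which 0.613% of 15168 genes passed. Before adjustment 2 of the 8 (CYP707A1 and NCED1) were under 0.05, beside 14% of the genes. RSV minus H was -1.86 (SE 0.37, 95% interval -2.68 to -1.05) with an unadjusted p of 0.000403 and an adjusted p of 0.086. In that comparison none of the 8 genes passed, against 0.104% of 15400 genes, with 1 of the 8 and 16.5% of the genes under 0.05 before adjustment. SM minus H was 0.08 (95% interval -0.79 to 0.95, adjusted p = 0.96). None of the 8 passed in the comparison of SM with H, against 0.0847% of 15347 genes, with 1 of the 8 (NCED1) and 11.4% of the genes under 0.05 before adjustment.

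The CYP707A1 calls were close to the threshold. The RSV call was kept without Acerra replicate 1 (adjusted p = 0.035) and without Sarno replicate 3 (adjusted p = 0.045) and was lost without any other single RSV library, with adjusted p-values of 0.091 to 0.13. It was also lost with the replicate block (adjusted p = 0.052), without a filter (adjusted p = 0.068) and with quantile normalization (adjusted p = 0.057). The RSV minus SM call was kept without RSV Acerra replicate 1, RSV Sarno replicate 3 or SM Sarno replicate 2 and was lost without any 1 of the other 9 libraries, with adjusted p-values of 0.058 to 0.093, while the difference itself stayed between -2.15 and -1.75. The library that stood apart, RSV Sarno replicate 3, therefore carried neither call.

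The third hydroxylase locus, Solyc04g071150 with its neighbour, had 47.0, 52.8 and 48.9 FPKM in H Acerra and 38.2, 49.2 and 60.5 FPKM in H Sarno. SM had 77.7, 83.3 and 84.9 FPKM at Acerra and 82.2, 73.9 and 64.2 FPKM at Sarno, and RSV 67.8, 76.7 and 92.2 FPKM at Acerra and 78.6, 71.2 and 75.6 FPKM at Sarno. Locations overlapped throughout, and the 95% intervals of the log2 fold change, -0.25 to 0.37 for RSV, -0.12 to 0.45 for SM and -0.40 to 0.46 for H, were much narrower than those of CYP707A2.

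**Figure D3:**
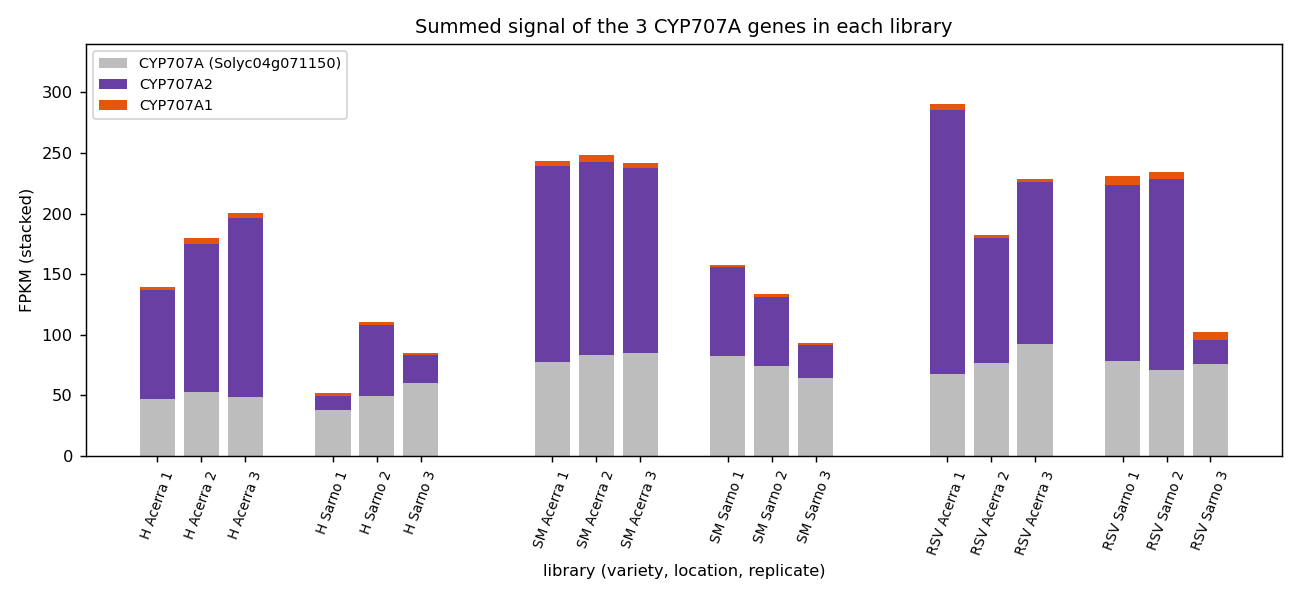
Stacked FPKM (vertical axis) of the 3 CYP707A genes in each of the 18 libraries (horizontal axis, by variety, location and replicate). The grey part, Solyc04g071150, varies little within a variety, the purple part, CYP707A2, makes up most of the difference between libraries, and CYP707A1 is the thin orange part of 1.08% to 6.33%.

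CYP707A2 accounted for most of the spread in the summed signal of the family. It made up 64.2%, 67.9% and 73.4% of the sum in H Acerra and 21.9%, 53.5% and 27.2% in H Sarno. In SM its share was 66.4%, 64.1% and 63.3% at Acerra and 46.8%, 42.9% and 29.4% at Sarno, again with no overlap. RSV had 75.1%, 56.6% and 58.5% at Acerra and 62.9%, 67.1% and 19.8% at Sarno, which overlapped.

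Setting NCED1 against the summed CYP707A signal puts a transcript of synthesis beside those of breakdown within each library. The sum includes the Solyc04g071150 locus, which may hold reads of Solyc04g071160. In H the ratio was 0.220, 0.192 and 0.183 at Acerra and 1.76, 0.461 and 0.686 at Sarno. RSV had 0.147, 0.155 and 0.154 at Acerra and 0.237, 0.230 and 0.820 at Sarno. In both varieties all Acerra libraries lay below all Sarno libraries, and the Acerra libraries were also closer to each other. In H the sum was higher at Acerra (140 to 201 FPKM) than at Sarno (51.9 to 111 FPKM), and NCED1 was lower. The H ratio could therefore not overlap and is no further observation. The RSV sum itself overlapped, at 183 to 290 FPKM at Acerra and 102 to 234 FPKM at Sarno, whereas NCED1 there did not. SM had 0.143, 0.0982 and 0.121 at Acerra and 0.113, 0.215 and 0.426 at Sarno, which overlapped in 1 Sarno library. The ratio compares transcript levels, was not tested, and says nothing of enzyme activity or of the hormone.

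**Figure D4:**
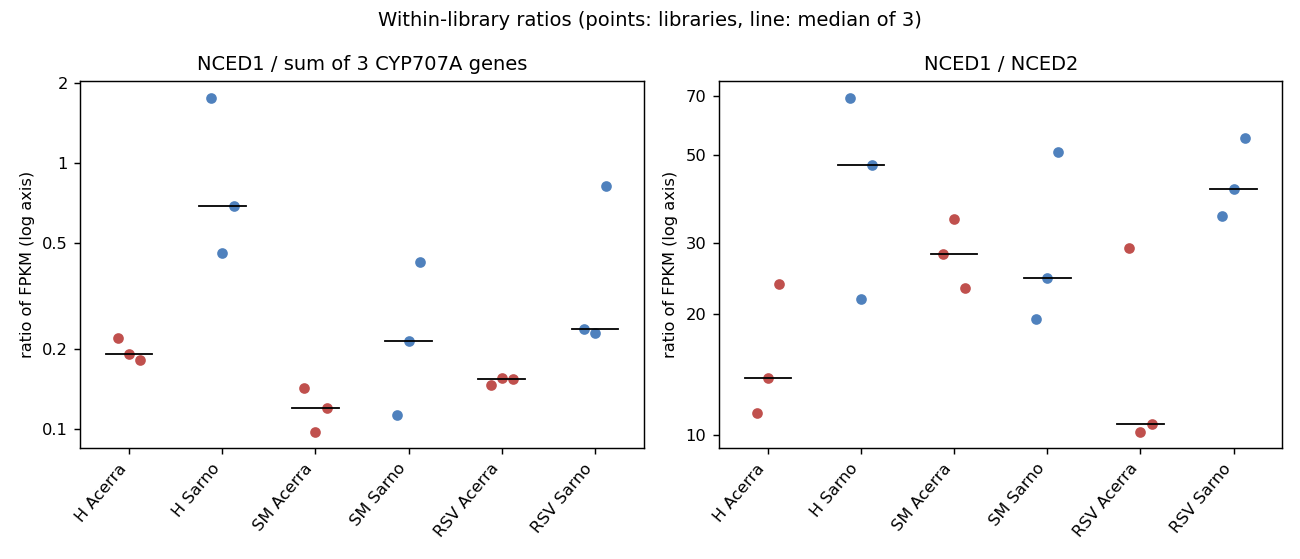
Ratio of NCED1 to the sum of the 3 CYP707A genes (left) and of NCED1 to NCED2 (right) in each library, on log axes, by variety and location. Points are libraries, red for Acerra and blue for Sarno, and black lines the median of 3. On the left, H and RSV have all Acerra points below all Sarno points, and the highest point is 1.76 in a Sarno library of H.

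AREB1, the transcription factor that acts on genes with abscisic acid response elements, leaned the same way in all varieties without passing the test in any. RSV had 72.5, 59.9 and 73.7 FPKM at Acerra and 50.3, 51.2 and 26.0 FPKM at Sarno, and SM 45.0, 38.6 and 44.8 FPKM at Acerra and 33.4, 35.2 and 29.7 FPKM at Sarno, with no overlap in either. H had 40.8, 34.5 and 55.6 FPKM at Acerra and 22.3, 16.2 and 38.1 FPKM at Sarno, where 1 Sarno library reached into the Acerra range. Log2 fold changes were 0.74 (SE 0.27, adjusted p = 0.13) in RSV, 0.38 (SE 0.11, adjusted p = 0.091) in SM and 0.82 (SE 0.33, adjusted p = 0.16) in H by limma. Without Sarno replicate 3 of RSV the RSV difference shrank to 0.43 and passed (adjusted p = 0.047), and without any other single RSV library it did not (adjusted p = 0.14 to 0.28). Without Sarno replicate 3 of H the H difference was 1.15 and passed (adjusted p = 0.048), and without any other single H library it did not (adjusted p = 0.23 to 0.34). In these 2 fits more loci passed in all, 4176 against 2167 in RSV and 1805 against 1598 in H. AREB1 and CYP707A1 are near each other on chromosome 4. In RSV every Acerra library was above every Sarno library for AREB1, which was not called, and below it for CYP707A1. Any part of their positions in this was not tested.

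A pair of Sarno libraries stood at the edge of the range for several members at once. Sarno replicate 1 of H had the highest NCED1 value of all 18 libraries (91.1 FPKM), the lowest CYP707A2 value (11.4 FPKM) and the lowest Solyc04g071150 value (38.2 FPKM). Sarno replicate 3 of RSV had the second highest NCED1 value (83.9 FPKM) and the second lowest CYP707A2 value (20.3 FPKM). ACS2 was at 246 FPKM in the H library and at 532 FPKM in the RSV library, and at 20.3 to 88.3 FPKM in the other 16. The 3 green tissue markers did not all move the same way in both libraries. The chlorophyll a-b binding protein P4 was at 3.91 FPKM in Sarno replicate 1 of H, against 0.270 and 1.13 FPKM in the other H Sarno libraries, and at 0.785 FPKM in Sarno replicate 3 of RSV, against 8.90 and 8.04 FPKM in the other RSV Sarno libraries. Chlorophyll a-b binding protein 6A was likewise the highest of its group in the H library (1.13 FPKM) and the lowest in the RSV library (0.285 FPKM). The photosystem II-associated protein was the highest of its group in both, at 85.3 FPKM in the H library, against 21.7 and 74.3 FPKM, and at 7.65 FPKM in the RSV library, against 2.18 and 1.26 FPKM. The part of ripening state or tissue make-up in these values was not tested.

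**Figure D5:**
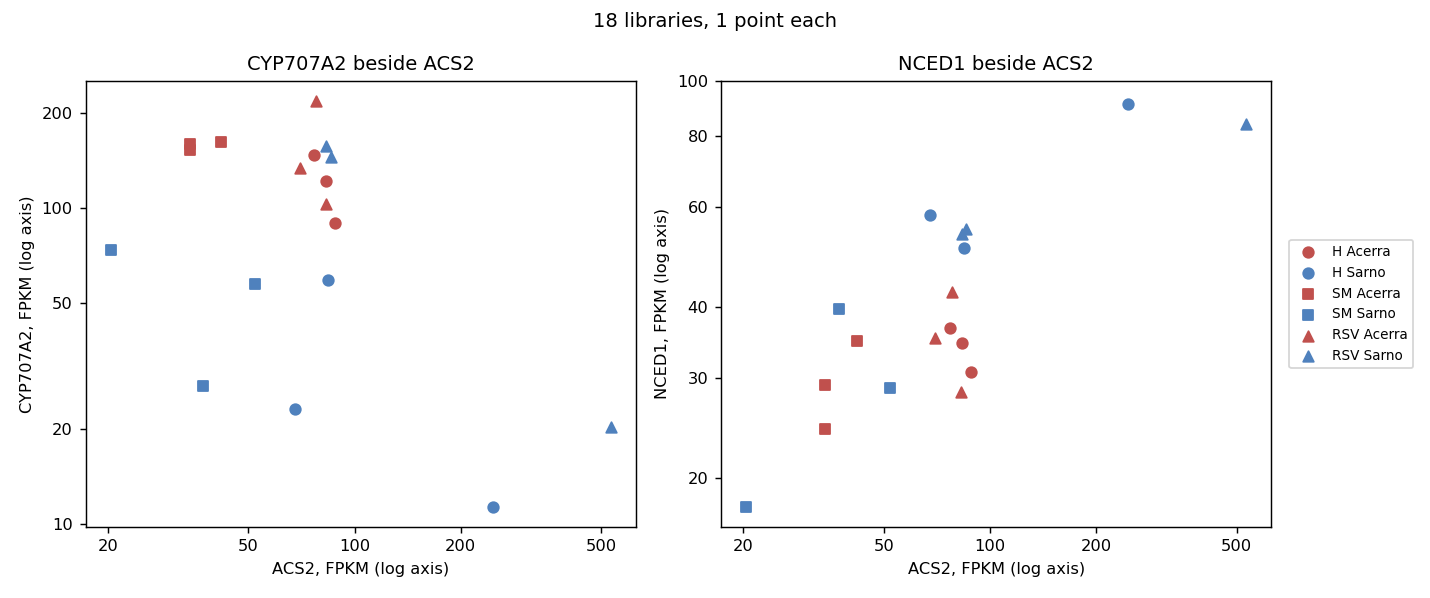
CYP707A2 (left) and NCED1 (right) in FPKM against ACS2 in FPKM, all on log axes, with 1 point per library, red for Acerra, blue for Sarno and a symbol for each variety. The points at 246 and 532 FPKM of ACS2, a Sarno library of H and one of RSV, have CYP707A2 at 11.4 and 20.3 FPKM and NCED1 at 91.1 and 83.9 FPKM.

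For each member the locus with the most similar pattern was looked up among 9384 or 9385 single-ID loci that averaged 5 FPKM or more in each variety, by Pearson's correlation over the 18 libraries of log2(FPKM + 0.5) centred on the variety mean. These are descriptions over libraries that share their scaling and their location, and the highest of so many values is high by selection. The most similar loci were Solyc02g087730 for AREB1 (r = 0.96), Solyc02g083170 for CYP707A2 (r = 0.93), Solyc06g008340 for Solyc04g071150 (r = 0.91) and Solyc02g061960 for FLACCA (r = 0.91). For ABA4 it was Solyc12g013690 (r = 0.88), for NCED1 Solyc02g082450 (r = 0.87), for CYP707A1 Solyc02g062460 (r = 0.87) and for NCED2 Solyc07g041900 (r = 0.83). No member was the most similar locus of another member. NCED2 and CYP707A1, by their low levels, and Solyc04g071150, by its shared locus, were not among the loci searched, so they could not be. The locus most like CYP707A1 had log2 differences between Acerra and Sarno of -0.28 in RSV, 0.57 in SM and 0.90 in H.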

How the data were processed

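Total RNA of ripe fruit was sequenced as paired reads, and the authors aligned them with TopHat 2.0.6 (H to the Heinz reference genome, SM and RSV each to its own assembly) and estimated expression with Cufflinks 2.1.1 with multi-read correction and annotation-guided assembly (CASAVA 1.8.2 made the read files). The deposited values are FPKM for every locus in every library, and their decimal commas were converted to points. The scaling between libraries is not given in the sources used here. Counts were not used, so no interval was given for a single FPKM value, and precision comes from the 3 libraries of a group.

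Groups were taken from the labels. Values were analysed as log2(FPKM + 0.5) for loci that averaged 0.5 FPKM or more in a fit. The lmFit and trended eBayes functions of limma 3.58.1 (R 4.3.3) were run within each variety over 6 libraries and, for genes matched by ID, as a location by variety interaction over 12, two-sided, with Benjamini-Hochberg adjustment over all loci. SE and 95% intervals come from the same fits. The model was tested on simulated data in which 200 loci of a variety were changed. Noise was drawn for each locus on its own, without deviations shared by a whole library. The false calls therefore do not give the error rate of the real calls. Of those changed by 2 log2 units it recovered 80 of 94 in RSV, 77 of 97 in SM and 71 of 94 in H. False calls among the unchanged loci of a run were 7 in RSV, 4 in SM and 10 in H. Of those changed by 1 unit it recovered 51 of 95 in RSV, 38 of 97 in SM and 38 of 98 in H. Ratios and levels were described without a test. Other pseudocounts, filters, scalings and variance settings, a replicate block, a fit of all 18 libraries and the omission of each library were tried.

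The text names the 8 members, the locus most like each of them, 1 upstream gene annotated in the paper, and marker genes. Members, lists and within-library ratios were chosen with earlier results of these data known. Python 3.11.15 with numpy 2.4.6, pandas 2.3.3 and matplotlib 3.10.9 was used for tables and plots. No gene ID of the 8 matched the RefSeq table, in which 6 of the 8 symbols occur, and no sequence is shown.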

Additional observations from a re-analysis of the deposited data

Results flagged for a closer look

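CYP707A1 was singled out because its location difference ran in opposite directions in different varieties. All 3 Acerra libraries of RSV lay below all 3 Sarno libraries, and all 3 Acerra libraries of SM and of H lay above all 3 Sarno libraries. RSV minus SM was -1.94 on the log2 scale and passed limma's interaction test (adjusted p = 0.033), while RSV minus H was -1.86 and did not (adjusted p = 0.086).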

How the results depend on the processing

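Calls on single genes lay near the threshold. CYP707A2 in SM passed in 8 of 10 settings other than leaving out a library, and not without a filter (adjusted p = 0.064) or with all 18 libraries in 1 fit (adjusted p = 0.12). CYP707A1 in RSV passed in 7 of 10, and not with the replicate block (adjusted p = 0.052), without a filter (adjusted p = 0.068) or with quantile normalization (adjusted p = 0.057). CYP707A1 in RSV minus SM passed in 9 of 10, the exception being quantile normalization (adjusted p = 0.069). No called value changed sign under the alternatives run. With all 18 libraries in 1 fit, 4 genes passed in H that had not (NCED1, CYP707A1, CYP707A2 and AREB1), as did CYP707A1 in SM and FLACCA in RSV. With the replicate block, CYP707A1 in SM (adjusted p = 0.027) and beta-carotene hydroxylase 2 in H (adjusted p = 0.035) passed. Beta-carotene hydroxylase 2 in SM did not pass with the block (adjusted p = 0.058), without a filter (adjusted p = 0.072) or without a trend (adjusted p = 0.054).

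Scaling turned round several values near 0 that were not called. Median ratio scaling shifted the median of all loci in H by -0.111 and of RSV minus H by 0.132, and quantile normalization shifted that of SM by -0.102. The share of calls in H that were higher at Acerra was 74.5%, against 55.8% with median ratio scaling and 51.0% with quantile normalization, and in SM 74.0% against 53.2% with quantile normalization. With median ratio scaling the log2 fold change in H was -0.10 for FLACCA and -0.089 for Solyc04g071150, and RSV minus H was 0.11 for ABA4 and 0.065 for AREB1. With quantile normalization it was -0.086 for FLACCA and -0.20 for Solyc04g071150 in H, -0.016 for NCED1 and -0.012 for Solyc04g071150 in SM, -0.073 for CYP707A1 in SM minus H, 0.069 for ABA4 and 0.080 for AREB1 in RSV minus H, and 0.031 for Solyc04g071150 in RSV minus SM. The cause was not tested.

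Counts of called loci were 1598 in H, 1490 in SM, 2167 in RSV, 13 for SM minus H, 16 for RSV minus H and 93 for RSV minus SM. Quantile normalization gave 831 in H. All 18 libraries in 1 fit gave 3531 in H and 37, 32 and 59 in the 3 comparisons of varieties. Without a filter these 3 were 25, 51 and 161, and without a trend RSV minus H was 25. The replicate block gave 1121 in RSV, 9 for RSV minus H and 61 for RSV minus SM. Same-numbered libraries deviated together with r between -0.03 and 0.27 in RSV, between -0.01 and 0.24 in SM and between 0.02 and 0.11 in H, so they were not taken as pairs.

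Leaving out 1 library gave 589 to 4176 calls in RSV, 358 to 1646 in SM, 3 to 1805 in H, 9 to 25 for SM minus H, 13 to 120 for RSV minus H and 29 to 456 for RSV minus SM. Among values not called, it moved these across 0. In H the range was -0.14 to 0.15 for FLACCA and -0.14 to 0.19 for Solyc04g071150. In SM it was -0.21 to 0.36 for NCED1 and -0.0025 to 0.27 for NCED2. In RSV it was -0.0072 to 0.28 for ABA4, -0.064 to 1.40 for CYP707A2 and -0.057 to 0.16 for Solyc04g071150. SM minus H was -0.025 to 0.26 for FLACCA, -0.13 to 0.32 for CYP707A1, -1.13 to 0.031 for CYP707A2 and -0.026 to 0.30 for Solyc04g071150. RSV minus H was -0.16 to 0.29 for NCED1, -0.040 to 0.47 for NCED2, -0.15 to 0.13 for ABA4, -0.13 to 0.20 for Solyc04g071150 and -0.40 to 0.20 for AREB1.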
